A study of Rattus norvegicus with 12 samples.

Results

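The 9 genes described here encode products of the fibroblasts that build the membranes around the brain. They are 3 fibrillar collagen chains (Col1a1, Col1a2, Col3a1), 4 small leucine-rich proteoglycans (Dcn, Lum, Fmod and Ogn), the growth factor Igf2 and the transporter Slc6a13. They were looked up by gene name among the 22431 genes of the deposited table, and 8 of the 9 symbols were found. Ogn was not listed under that symbol. A gene that the table describes as osteoglycin, the protein encoded by Ogn, stands there under the provisional name NEWGENE_1308171 and was taken as the ninth gene, called osteoglycin below. All 9 passed the filter on low values (a mean of at least 0.5 FPKM, sequenced fragments scaled to gene length and library depth), which kept 14170 genes.

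RNA was sequenced from the prefrontal cortex (PFC) of 12 wild-type rats in early adolescence, 1 library per animal. There were 4 animals with postnatal oxycodone exposure (PNO), 4 with in utero oxycodone exposure (IUO) and 4 saline controls. Oxycodone, an opioid receptor agonist, was given by oral gavage at 15 mg/kg, until postnatal day 21 at the latest. The labels do not give the dosing window of each group, the strain or the sex. The 4 animals of a group had 2 dams, with 2 animals taken per dam, but no animal is tied to a dam, so litter was no term in the tests, which may make their p-values too low.

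The leptomeninges, made of the arachnoid and the pia, and the sheaths of large vessels that enter the cortex hold fibroblasts. These cells secrete collagen I and III, which assemble outside the cell into banded fibrils, and small leucine-rich proteoglycans, which bind to the fibrils and set their diameter and spacing. Neurons and glia of the cortex make little of these proteins. In bulk RNA, fewer fibroblasts and less RNA per fibroblast cannot be told apart.

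Upstream sequence was at hand for 5 of the 9 genes (Col1a2, Lum, Fmod, Ogn and Igf2, Igf2 with 2 starts), as the 250 bases before the annotated start in RefSeq, build GRCr8. The windows of Col1a2 and of the 3 proteoglycans are shown, as the matrix genes among the 5, and those of Igf2 are described. Capitals mark 3 motifs on either strand. They are CCAAT, a motif bound by the factor NF-Y that reads ATTGG on the other strand, TATAAA, known as the TATA box and reading TTTATA on the other strand, and GGGCGG, known as the GC box and reading CCGCCC there. Col1a2 lies at chr4:33518307-33518556 (plus strand), Lum at chr7:34245456-34245705 (plus strand), Fmod at chr13:48045317-48045566 (plus strand) and Ogn at chr17:15258996-15259245 (minus strand).
Col1a2: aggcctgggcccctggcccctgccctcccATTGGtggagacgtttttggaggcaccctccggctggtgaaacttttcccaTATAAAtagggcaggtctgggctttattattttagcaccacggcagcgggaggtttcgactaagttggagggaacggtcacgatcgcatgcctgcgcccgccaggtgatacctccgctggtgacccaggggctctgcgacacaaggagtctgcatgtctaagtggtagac
Lum: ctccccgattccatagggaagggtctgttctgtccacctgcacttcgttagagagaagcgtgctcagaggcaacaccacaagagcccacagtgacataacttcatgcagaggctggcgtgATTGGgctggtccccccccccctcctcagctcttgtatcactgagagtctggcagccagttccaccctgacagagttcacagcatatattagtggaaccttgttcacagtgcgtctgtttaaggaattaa
Fmod: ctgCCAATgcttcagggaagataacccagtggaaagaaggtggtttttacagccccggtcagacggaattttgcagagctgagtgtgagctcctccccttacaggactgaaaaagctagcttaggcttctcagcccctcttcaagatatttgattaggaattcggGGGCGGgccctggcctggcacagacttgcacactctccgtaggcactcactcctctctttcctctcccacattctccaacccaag
Ogn: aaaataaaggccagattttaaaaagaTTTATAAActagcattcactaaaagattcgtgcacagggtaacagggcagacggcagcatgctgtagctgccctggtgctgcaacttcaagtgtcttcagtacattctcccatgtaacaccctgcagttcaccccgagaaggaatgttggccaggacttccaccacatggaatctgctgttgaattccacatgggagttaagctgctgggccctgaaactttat
Col1a2 held ATTGG 221 bases and TATAAA 170 bases before its annotated start. Lum held ATTGG at 130 bases, Fmod held CCAAT at 247 and GGGCGG at 85, and Ogn held TATAAA at 222, overlapping TTTATA at 224. Of the 2 Igf2 windows, one held GGGCGG at 129 bases and the other held none of the 3 motifs. No motif was shared by all 5 genes. Among all 33469 rat windows of the same length, 34.0% held CCAAT, 12.9% TATAAA and 30.5% GGGCGG on either strand, so single matches of these short motifs are common.

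Total counts ran from 49227533 to 60672246 per library, and r of log2 CPM (counts scaled to library depth) between libraries of a group lay between 0.954 and 0.983. Markers of cortical excitatory neurons were high in all 12 libraries, with Slc17a7 at 413 to 735 FPKM and Neurod6 at 23.1 to 40.4 FPKM. Markers of neighbouring regions differed between libraries of the same group. Markers of the striatum were raised in PNO 2, IUO 1, IUO 2 and saline 2 (mean log2 CPM 4.74 to 6.50, against 3.58 to 3.74 in the other 8), and markers of the olfactory bulb in PNO 1, PNO 3, PNO 4 and IUO 3 (3.67 to 4.46, against 1.25 to 1.86). All 13 striatal markers were listed and 12 tested, with summed levels of 159 to 899 FPKM in PNO, 176 to 701 FPKM in IUO and 147 to 324 FPKM in saline. All 8 bulb markers were listed and 7 tested, with summed levels of 9.75 to 60.4 FPKM in PNO, 8.66 to 76.2 FPKM in IUO and 9.79 to 13.3 FPKM in saline. Every PNO library thus had raised markers of either region, and so did IUO 1, IUO 2, IUO 3 and saline 2. Fold changes of the 9 genes that turn or move strongly without these libraries are given below with and without them.

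Among the 9 genes, Igf2 was highest at a mean of 14.9 FPKM over the 12 libraries, followed by Col1a2 (13.2 FPKM), Col1a1 (12.5 FPKM), Col3a1 (9.99 FPKM), osteoglycin (8.34 FPKM), Dcn (7.44 FPKM), Slc6a13 (6.50 FPKM), Fmod (4.33 FPKM) and Lum (1.36 FPKM). The lower end of this order was the firmer one. Slc6a13 stood above Fmod, and Fmod above Lum, in all 12 libraries, whereas Col1a1 stood above Col3a1, and Dcn above Slc6a13, in 8 of 12. The 4 other steps held in 10 of 12 libraries. Against all tested genes, Igf2 stood at percentile 72.7 and Lum at percentile 16.4 of mean FPKM.

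Col1a1 encodes the alpha 1 chain of collagen I, the main fibril-forming collagen of connective tissue. The table places it at chr10:79883622-79900624 on the plus strand, in a genome build not given in the sources used here, as for the positions that follow. It had 11.7, 8.47, 18.0 and 33.6 FPKM in the PNO libraries, 7.55, 6.71, 11.2 and 10.5 FPKM in the IUO libraries and 11.0, 7.06, 14.7 and 9.20 FPKM in the saline libraries. PNO 4 and PNO 3 were the highest of the 12, saline 3 came next, and the 3 groups overlapped. The highest library was 5.01-fold above the lowest, the widest span of the 9 genes. Means were 17.9 ± 11.2, 8.99 ± 2.19 and 10.5 ± 3.24 FPKM in PNO, IUO and saline (SD, n = 4 each).

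Col1a2 encodes the alpha 2 chain, which joins alpha 1 chains in the collagen I triple helix (chr4:32563381-32598867, plus strand). Its levels were 12.6, 9.31, 19.7 and 26.8 FPKM in PNO, 9.93, 8.26, 12.2 and 11.9 FPKM in IUO and 12.5, 7.98, 14.2 and 12.8 FPKM in saline. The same 3 libraries, PNO 4, PNO 3 and saline 3, were again the highest, in the same order, and the groups overlapped. Means were 17.1 ± 7.76 FPKM in PNO, 10.6 ± 1.86 FPKM in IUO and 11.9 ± 2.70 FPKM in saline (SD, n = 4 each).

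Col3a1 encodes the chain of collagen III, which forms finer fibrils together with collagen I in stretchable tissues and vessel walls (chr9:47374593-47410547, plus strand). It had 10.5, 8.00, 11.5 and 15.3 FPKM in PNO, 8.34, 6.69, 8.65 and 13.9 FPKM in IUO and 11.8, 6.70, 8.50 and 10.03 FPKM in saline. PNO 4 was highest here too, but IUO 4 came next and saline 3 stood among the middle libraries. Means were 11.3 ± 3.02, 9.39 ± 3.11 and 9.25 ± 2.17 FPKM in PNO, IUO and saline (SD, n = 4 each).

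**Figure D1:**
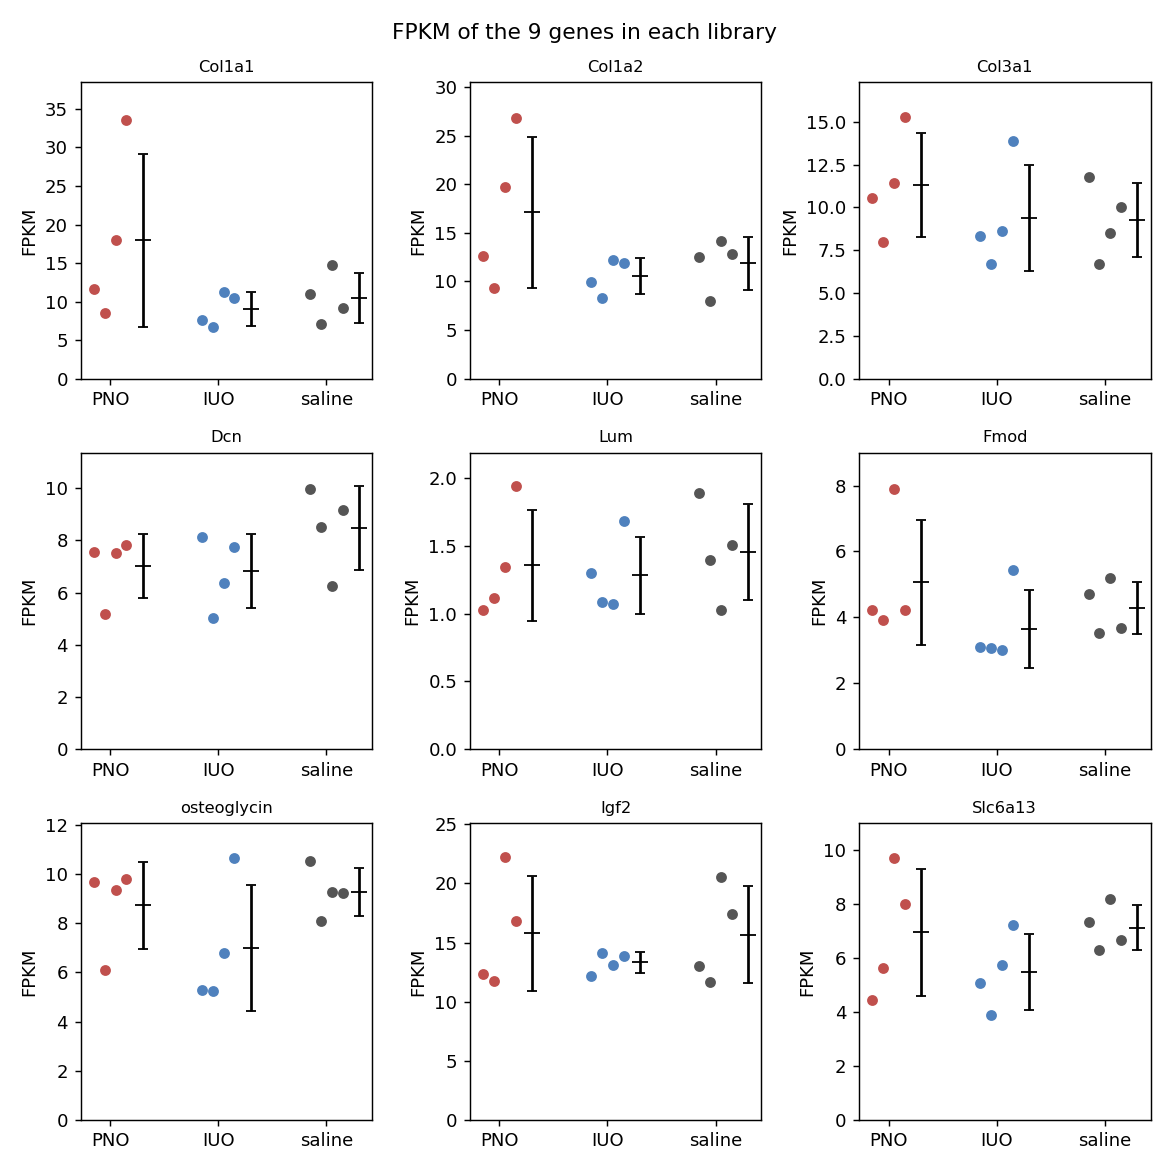
FPKM of the 9 genes in each library (points, PNO left, IUO middle, saline right; within a group from library 1 to 4), with the mean and SD of each group as the bar beside them. Col1a1 and Col1a2 reach 33.6 and 26.8 FPKM in PNO 4, and the groups overlap for all 9 genes.

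Decorin (Dcn) carries a single glycosaminoglycan chain, coats collagen fibrils and binds transforming growth factor beta (chr7:32281252-32321270, plus strand). It had 7.55, 5.18, 7.53 and 7.82 FPKM in PNO, 8.11, 5.03, 6.37 and 7.76 FPKM in IUO and 9.97, 8.53, 6.25 and 9.16 FPKM in saline. Saline 1, saline 2 and saline 4 were the highest of the 12, but saline 3 lay below 6 of the 8 exposed libraries, so the groups overlapped. Dcn did not share the peak of collagen I in PNO 4. Means were 7.02 ± 1.23, 6.82 ± 1.41 and 8.48 ± 1.60 FPKM in PNO, IUO and saline (SD, n = 4 each).

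Lumican (Lum) limits fibril thickness and is needed for transparency of the cornea (chr7:32358614-32365793, plus strand). It was the lowest of the 9, with 1.03, 1.12, 1.34 and 1.94 FPKM in PNO, 1.30, 1.08, 1.07 and 1.68 FPKM in IUO and 1.89, 1.40, 1.02 and 1.51 FPKM in saline. These levels rest on 279 to 596 counts per library. Each group held both low and high libraries, with PNO 4 and saline 1 at the top.

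Fibromodulin (Fmod) binds collagen I and takes part in its cross-linking (chr13:45493517-45504133, plus strand). It had 4.21, 3.91, 7.90 and 4.22 FPKM in PNO, 3.10, 3.06, 3.00 and 5.43 FPKM in IUO and 4.71, 3.53, 5.18 and 3.69 FPKM in saline. PNO 3 and IUO 4 each stood far above the rest of their group, and the other 3 IUO libraries were the lowest of the 12.

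Osteoglycin, also called mimecan, is a small proteoglycan that takes part in collagen fibril formation (chr17:15032069-15052739, minus strand). Its gene lies inside Cenpp, a centromere protein gene on the plus strand, which had 48 to 101 counts per library against 810 to 1998 for osteoglycin. The libraries are stranded per the labels, but the strand setting of the counting is not given in the sources used here, so reads of the overlap could be split between the pair. Osteoglycin had 9.69, 6.10, 9.36 and 9.80 FPKM in PNO, 5.28, 5.23, 6.80 and 10.7 FPKM in IUO and 10.5, 8.11, 9.29 and 9.23 FPKM in saline. IUO 1 and IUO 2 were the lowest libraries and IUO 4 the highest, so the IUO range held all the others. Means were 8.74 ± 1.77, 6.99 ± 2.55 and 9.29 ± 0.984 FPKM in PNO, IUO and saline (SD, n = 4 each).

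Igf2 encodes insulin-like growth factor II, a secreted fetal growth factor expressed from the paternal copy in most tissues and, in the rodent brain after birth, mainly in the meninges and choroid plexus (chr1:197814410-197823018, minus strand). It had 12.3, 11.7, 22.2 and 16.8 FPKM in PNO, 12.2, 14.1, 13.1 and 13.9 FPKM in IUO and 13.0, 11.6, 20.5 and 17.5 FPKM in saline. PNO and saline each held 2 high and 2 low libraries, and the 4 IUO libraries lay close together within the range of both. Means were 15.8 ± 4.87, 13.3 ± 0.880 and 15.7 ± 4.09 FPKM in PNO, IUO and saline (SD, n = 4 each).

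Slc6a13 encodes GAT2, a sodium-coupled carrier of gamma-aminobutyric acid (GABA) and taurine that in the rodent brain is found mainly in the leptomeninges (chr4:154540468-154576152, plus strand). It had 4.45, 5.63, 9.68 and 7.99 FPKM in PNO, 5.04, 3.88, 5.71 and 7.22 FPKM in IUO and 7.32, 6.30, 8.17 and 6.64 FPKM in saline. PNO spanned nearly the whole range, and 3 of the 4 IUO libraries lay below all 4 saline libraries. Means were 6.94 ± 2.35, 5.46 ± 1.39 and 7.11 ± 0.828 FPKM in PNO, IUO and saline (SD, n = 4 each).

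The comparison of PNO with saline asks whether exposure after birth left a difference in adolescence. The 3 collagen chains averaged higher in PNO and Dcn averaged lower, but no member passed the test. In edgeR's quasi-likelihood test on counts, fitted to all 14170 genes with Benjamini-Hochberg adjustment, 0 of the 9 genes had an adjusted p under 0.05, and percent called over all genes was 0. Col1a1 had a log2 fold change of 0.75 (SE 0.36; edgeR unadjusted p = 0.0592, adjusted p = 0.467) and Col1a2 one of 0.50 (SE 0.28; edgeR adjusted p = 0.531). The Col1a1 difference rested on PNO 4. Without that library the log2 fold change was 0.24 for Col1a1 (edgeR adjusted p = 0.808) and 0.19 for Col1a2 (adjusted p = 0.840). Dcn had a log2 fold change of −0.30 (SE 0.18; edgeR adjusted p = 0.570). The other 6 genes lay between −0.12 and 0.26, with edgeR adjusted p of 0.690 to 0.982.

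Of the 9 genes, 5 had a negative log2 fold change against saline in PNO, beside 48.8% of all tested genes. Their median was −0.02, beside 0.01 over all tested genes, and 0 of 9 had an unadjusted p under 0.05, beside 11.0% of all tested genes in edgeR. None of the 9 had PNO libraries all above or all below saline, which 6.46% and 3.20% of all tested genes had. DESeq2, run beside edgeR, called 0 of the 9 genes, against 0.857% of the genes it gave an adjusted p. The 3 PNO libraries with high olfactory bulb markers included both with high collagen I. Leaving out all 4 libraries with raised bulb markers left only PNO 2 in that group, the library with the highest striatal markers, whose spread edgeR then takes from the other groups. All 9 log2 fold changes against saline were then negative. Col1a1 was at −0.34, Col1a2 at −0.38, Col3a1 at −0.24 and Fmod at −0.16, which turned their direction, and Dcn was at −0.74, osteoglycin at −0.64, Igf2 at −0.45, Lum at −0.40 and Slc6a13 at −0.36. The part of bulb tissue in the PNO averages was not tested, since 3 of the 4 PNO libraries and none of the saline libraries carry it.

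The comparison of IUO with saline asks the same of the group labelled as exposed in utero. The labels do not say whether its dosing went on after birth. All of the 9 genes but Col3a1 averaged below saline, and no member passed. Col3a1 averaged 9.39 FPKM in IUO and 9.25 FPKM in saline. Of the 9 genes, 8 had a negative log2 fold change, beside 43.6% of all tested genes, with a median of −0.25, beside 0.02 over all tested genes. edgeR called 0 of 9, percent called over all genes was 0, and every edgeR adjusted p was 0.998 or above. The largest differences were those of osteoglycin, at −0.43 (SE 0.22; edgeR unadjusted p = 0.0717), Slc6a13 at −0.40 (SE 0.24; unadjusted p = 0.114) and Dcn at −0.33 (SE 0.18; unadjusted p = 0.0922). Col3a1 was level between the groups, at 0.0011 (SE 0.24). None of the 9 had an unadjusted p under 0.05 in edgeR, beside 4.02% of all tested genes. None had IUO libraries all above or all below saline, beside 1.45% and 0.783% of all tested genes. DESeq2 called 0 of 9, against 0.0777% of its genes.

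IUO 4 went against the other 3 IUO libraries for osteoglycin and Fmod. Without it osteoglycin stood at −0.71 on the log2 scale (SE 0.17; edgeR adjusted p = 0.426), Slc6a13 at −0.57 and Fmod at −0.52. IUO 1 and IUO 2, the lowest for osteoglycin, had raised striatal markers. Dropping the 4 striatum-rich libraries leaves 2 IUO and 3 saline libraries, and this moved osteoglycin to −0.17 and Slc6a13 to −0.22, and Igf2 to −0.36.

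Between the exposed groups, all 9 genes averaged lower in IUO than in PNO on the log2 scale, beside 49.2% of all tested genes, with a median of −0.31, beside 0.00 over all tested genes. edgeR called 0 of 9, and percent called over all genes was again 0. Col1a1 had a log2 fold change of −0.99 (SE 0.36; edgeR unadjusted p = 0.0167, adjusted p = 0.714) and Col1a2 one of −0.69 (SE 0.28; unadjusted p = 0.0292, adjusted p = 0.714). These were the 2 of 9 with an unadjusted p under 0.05, beside 6.73% of all tested genes in edgeR, and without PNO 4 they stood at −0.49 and −0.38 (edgeR adjusted p = 0.850 for both). Fmod followed at −0.47 (SE 0.26), Slc6a13 at −0.34 (SE 0.24) and osteoglycin at −0.31 (SE 0.22). Dcn and Lum were nearly level at −0.04 and −0.08. None of the 9 had groups that did not overlap, beside 1.78% of all tested genes with IUO above and 1.80% with IUO below PNO. DESeq2 called 0 of 9, against 0.0565% of its genes. Without the 4 libraries with raised bulb markers, which leaves PNO 2 alone in its group, 6 of the 9 turned positive in IUO against PNO (Col1a2 0.10, Col3a1 0.27, Dcn 0.42, Lum 0.27, osteoglycin 0.21, Igf2 0.18). Col1a1 was then at −0.04, Fmod at −0.02 and Slc6a13 at −0.07. This comparison and that of PNO with saline share the PNO libraries, so the high collagen I of PNO 4 enters both.

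**Figure D2:**
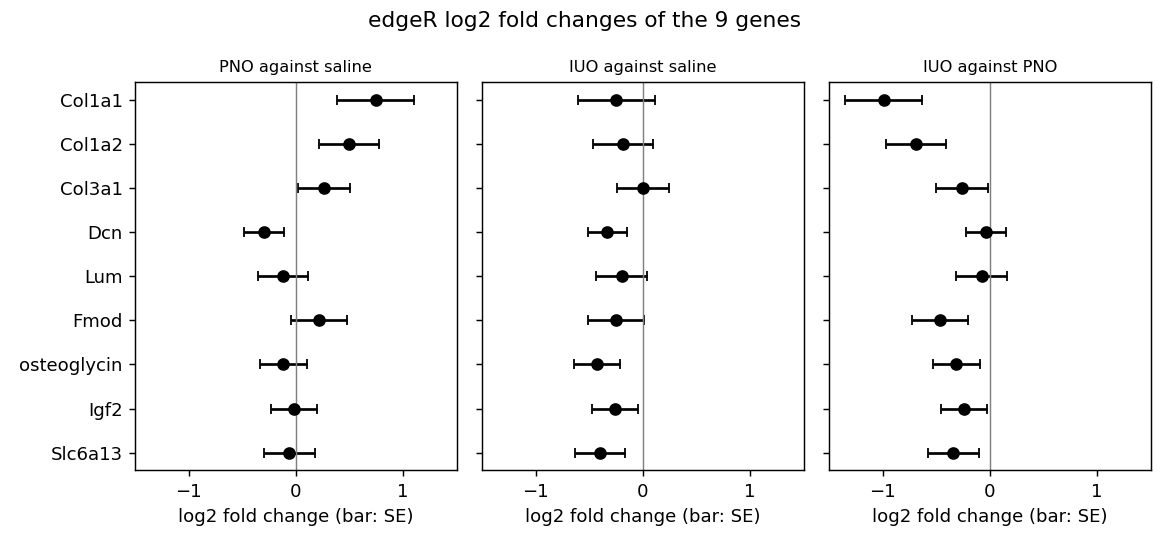
Log2 fold change of the 9 genes in edgeR (points) with its standard error (bars) for PNO against saline, IUO against saline and IUO against PNO. Col1a1 lies farthest from 0 with values of 0.75 in PNO against saline and −0.99 in IUO against PNO, and none of the 27 values passed the adjusted threshold.

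The ratio of the 2 collagen I chains varied less between animals than their levels did. Col1a1 FPKM over Col1a2 FPKM was 0.923, 0.909, 0.915 and 1.26 in PNO, 0.761, 0.812, 0.915 and 0.879 in IUO and 0.878, 0.884, 1.04 and 0.719 in saline. PNO 4 had the highest ratio and saline 4 the lowest. All 3 groups overlapped, and the lowest p was that of IUO against PNO (exact permutation test on log2 ratios, two-sided, p = 0.0571, adjusted p = 0.643 over 18 tests of 6 ratios in 3 comparisons). With 4 against 4 libraries the smallest p this test can give is 0.0286.

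Collagen III and decorin were also read relative to collagen I. Col3a1 over Col1a1 was 0.902, 0.945, 0.637 and 0.455 in PNO, 1.11, 0.998, 0.772 and 1.32 in IUO and 1.08, 0.949, 0.577 and 1.09 in saline. The 3 libraries with the most Col1a1, PNO 4, PNO 3 and saline 3, had the 3 lowest ratios. Dcn over Col1a1 was 0.647, 0.612, 0.418 and 0.233 in PNO, 1.07, 0.750, 0.568 and 0.740 in IUO and 0.909, 1.21, 0.425 and 0.995 in saline, with the same 3 libraries lowest. Col1a1 is the denominator of both ratios and spans 5.01-fold, against 2.28-fold for Col3a1 and 1.98-fold for Dcn, so low ratios where Col1a1 is high follow in part from how the ratios are made. Between PNO and saline the exact permutation p was 0.114 for Dcn over Col1a1 and 0.257 for Col3a1 over Col1a1, and between IUO and PNO it was 0.0857 and 0.143. All 18 adjusted exact p were 0.643 or above.

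Across the 12 libraries the 9 genes varied together to different degrees. All 36 pairs had a positive Pearson's r of log2 CPM, from 0.07 for Dcn with Igf2 to 0.97 for Col1a1 with Col1a2. The median r was 0.580, and 0.595 after the mean of each group was subtracted, so it was as high among animals of the same group. By permutation with 100000 resamples and adjustment over the 36 pairs, 14 pairs had an adjusted p under 0.05 for r and 5 for Spearman's rho. Those 5 were Col1a1 with Col1a2, Col1a2 with Col3a1, Col1a2 with Igf2, Col3a1 with osteoglycin and Fmod with Slc6a13. All pairs share libraries, and the 12 libraries differ in region markers, so the pairs are not independent of each other.

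Col1a1 and Col1a2 gave r = 0.972 and rho = 0.895 (permutation p = 1e-05 and 0.00018, adjusted p = 0.00036 and 0.00648). Without PNO 3 and PNO 4, the libraries farthest from the median of Col1a1, r was 0.920. Col3a1 and osteoglycin gave r = 0.741 and rho = 0.839 (permutation p = 0.0067 and 0.0011, adjusted p = 0.0443 and 0.0193), and r was 0.716 without PNO 4 and IUO 4. Col3a1 thus tracked osteoglycin about as closely as it tracked Col1a1 (r = 0.747, 0.580 without PNO 3 and PNO 4). Its r with the other collagen I chain, Col1a2, was 0.799, and 0.706 without PNO 3 and PNO 4. Fmod and Slc6a13, a matrix protein and a transporter, gave r = 0.775 and rho = 0.776 (permutation adjusted p = 0.0343 and 0.0426), and r was 0.681 without PNO 3 and IUO 4.

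The 4 proteoglycans correlated with each other to different degrees, and differences between pairs were not tested. Dcn and Lum, neighbours on chromosome 7 with 37343 bases between them, gave r = 0.705 and rho = 0.699 (permutation adjusted p = 0.0443 and 0.0558), and r was 0.713 without PNO 2 and IUO 2. Dcn had r of 0.225 with Fmod, 0.164 with Col1a1 and 0.274 with Col1a2, with permutation adjusted p of 0.443 to 0.651. Osteoglycin had r of 0.615 with Dcn, 0.537 with Lum and 0.688 with Fmod (permutation adjusted p = 0.0769, 0.112 and 0.0443), though 0.239 with Dcn without PNO 2 and IUO 2. The rho of Dcn with Col1a1 was −0.0350 (permutation adjusted p = 0.921).

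**Figure D3:**
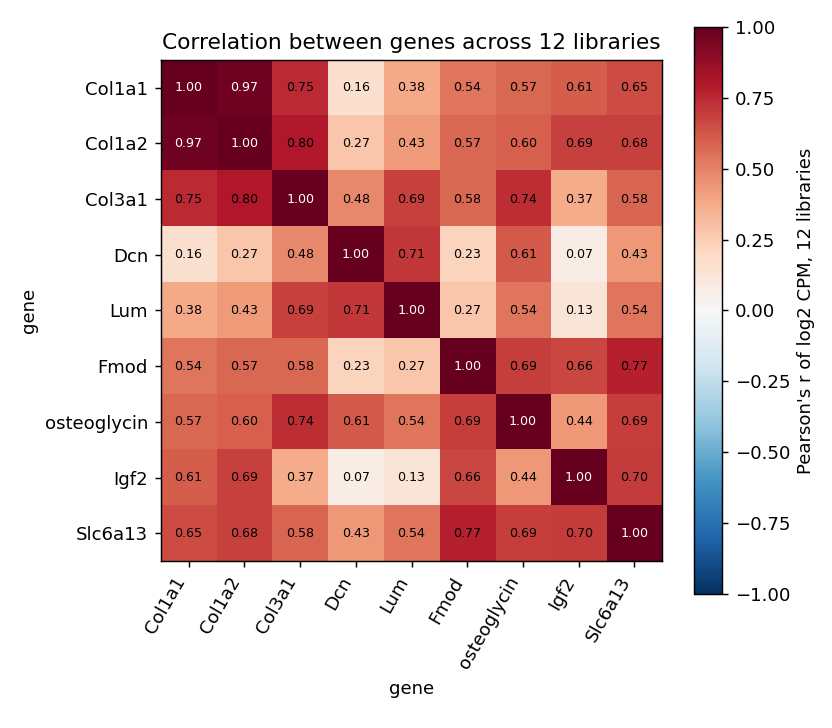
Pearson's r of log2 CPM across the 12 libraries for each pair of the 9 genes, from −1 (blue) to 1 (red), with r printed in each square. The collagen I pair stands out at 0.97, and the palest squares join Dcn to Igf2, Col1a1, Fmod and Col1a2, and Lum to Igf2 and Fmod.

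Outside the 9 genes, those whose log2 CPM most resembled the mean of the 9 standardised genes over the 12 libraries were Pdgfrl (r = 0.939), Vim (0.933), Anxa1 (0.931), Col6a2 (0.921), Olfml3 (0.908) and Prg4 (0.886). They were followed by an unnamed gene (ENSRNOG00000064143, r = 0.880), Pla2g4b (0.879), Ppp1r16a (0.874) and Pvr (0.868). Vim encodes vimentin, the intermediate filament of mesenchymal and glial cells, and Col6a2 a chain of the microfibrillar collagen VI. For Igf2 alone the 3 nearest genes were Otub1 (r = 0.880), Lrrc32 (0.859) and the smooth muscle actin gene Acta2 (0.856), and for Slc6a13 they were Anxa1 (0.893), Prg4 (0.889) and the same unnamed gene (0.885). Without PNO 3 and saline 3, the libraries farthest from the median of Igf2, r with Igf2 was 0.790, 0.612 and 0.714. Without PNO 1 and IUO 2, r with Slc6a13 was 0.885, 0.854 and 0.824. All genes named here were picked as the highest among all tested genes, so the values are a description.

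The mean of the 9 standardised genes was −0.30, −0.82, 1.08 and 1.21 SD in the PNO libraries, −0.74, −1.28, −0.57 and 0.57 in the IUO libraries and 0.56, −0.53, 0.39 and 0.43 in the saline libraries. Its r with the mean of 28 tested markers of meningeal and perivascular fibroblasts, none of them a member, was 0.916 (rho = 0.944), and 0.897 without PNO 4 and IUO 2. Its r was 0.654 with osteoblast and bone markers, 0.593 with pericyte and smooth muscle markers, 0.381 with blood, 0.284 with olfactory bulb, 0.198 with endothelium and −0.00756 with choroid plexus and ependyma markers. Without PNO 4 and IUO 2 these values were 0.356 for bone, 0.598 for pericytes and smooth muscle, 0.373 for blood, −0.04 for bulb, 0.0883 for endothelium and 0.676 for choroid plexus and ependyma. With striatal markers r was −0.73 (rho = −0.61), and −0.65 without those libraries. The 4 striatum-rich libraries were 4 of the 5 lowest in these 9 genes, with IUO 3 as the other. The part of region makeup in this was not tested.

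**Figure D4:**
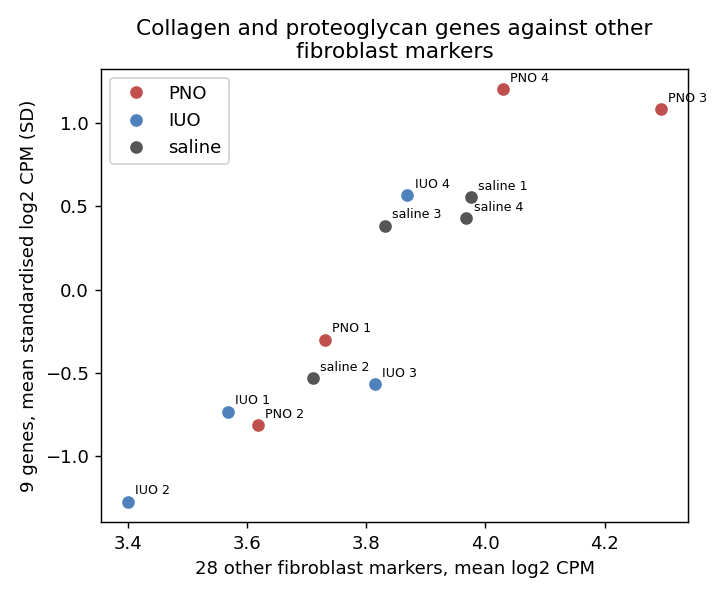
Mean of the 9 genes (vertical axis, mean of log2 CPM standardised over the 12 libraries, in SD) against the mean log2 CPM of 28 other fibroblast markers (horizontal axis), 1 point per library, coloured by group. PNO 3 and PNO 4 lie at the top right, IUO 2 at the bottom left, and the 3 groups overlap on both axes.

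The other fibroblast markers numbered 32, all listed and 28 tested. Their mean log2 CPM ran from 3.62 to 4.29 in PNO, 3.40 to 3.87 in IUO and 3.71 to 3.97 in saline, and their summed FPKM, most of it from a few abundant genes, from 1301 to 2871 in PNO, 1088 to 2764 in IUO and 1832 to 2070 in saline. None passed in any comparison in edgeR. Against saline, 25 of 28 had a negative log2 fold change in IUO (median −0.25) and 17 of 28 in PNO (median −0.04), beside 43.6% and 48.8% of all tested genes. Between IUO and PNO, 25 of 28 were negative (median −0.31), beside 49.2% of all tested genes. The lowest means of the markers, 3.40 and 3.57, were those of IUO 2 and IUO 1, which had raised striatal markers. All markers share these libraries, so the 28 fold changes are not independent of each other. At an unadjusted p under 0.05 in edgeR, 4 were lower in IUO than in saline, beside 1.71% of all tested genes. Crabp2, which binds retinoic acid, a signal made by the meninges, was one of them, at 2.67 ± 0.514 FPKM in IUO and 4.05 ± 0.378 FPKM in saline (SD, n = 4 each; log2 fold change −0.62, SE 0.21; edgeR adjusted p = 0.998). All 4 IUO libraries lay below all 4 saline libraries, beside 0.783% of all tested genes. Spp1, which encodes the secreted phosphoprotein osteopontin and is also a bone gene, averaged 10.4 ± 5.78 FPKM in PNO and 2.22 ± 0.457 FPKM in saline (SD, n = 4 each; log2 fold change 2.19, SE 0.87; edgeR adjusted p = 0.417). It was high in the 4 libraries with raised bulb markers, at 10.6, 14.9 and 13.8 FPKM in PNO 1, PNO 3 and PNO 4 and 23.5 FPKM in IUO 3. PNO 2, at 2.14 FPKM, lay within the saline range of 1.82 to 2.86 FPKM, and the part of bulb tissue was not tested.

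Bone genes were looked at after the values were seen, because Bglap was the gene most like Col1a1 after Col1a2 (r = 0.928, rho = 0.888, and 0.913 without PNO 3 and PNO 4). Bglap encodes osteocalcin, a protein of bone matrix made by osteoblasts. It had 0.582, 0.488, 2.55 and 8.54 FPKM in PNO, 0.136, 0, 0.945 and 1.02 FPKM in IUO and 0.705, 0.177, 2.31 and 0.692 FPKM in saline, from 0 to 273 counts. The libraries with the most Bglap, PNO 4, PNO 3 and saline 3, were those with the most Col1a1 and Col1a2. Bglap was picked for its likeness to Col1a1, so this match follows in part from the choice. Of 13 osteoblast and bone markers, all were listed and 8 were tested. Their summed FPKM without Spp1 was 13.2 to 26.4 in PNO, 14.1 to 16.9 in IUO and 12.8 to 18.3 in saline. Ifitm5, Mmp13, Phex, Sost and Dmp1, other genes of osteoblasts, osteocytes or their matrix turnover, fell under the filter. Among the tested markers, Alpl and Runx2 were highest in PNO 4, at 7.34 and 0.849 FPKM, followed by IUO 1 and saline 2. Ibsp and Mepe were highest in IUO 4, at 1.94 and 2.64 FPKM. In PNO against saline 4 of the 8 averaged higher and 4 lower on the log2 scale (median 0.03). Pth1r, the parathyroid hormone receptor gene, was among the lower ones, at 3.89 ± 0.467 FPKM in PNO and 5.06 ± 0.519 FPKM in saline (SD, n = 4 each; log2 fold change −0.41, SE 0.14; edgeR adjusted p = 0.360). Sp7, a factor of osteoblasts also called osterix, was highest in PNO 4, PNO 3 and IUO 3, which are libraries with raised bulb markers. It averaged 1.71 ± 0.691 FPKM in PNO and 0.446 ± 0.105 FPKM in saline (SD, n = 4 each; log2 fold change 1.90, SE 0.49; edgeR adjusted p = 0.305), with 0.816 FPKM in PNO 2, the PNO library without raised bulb markers, and up to 0.547 FPKM in saline. The part of bone tissue in the collagen I levels was not tested.

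**Figure D5:**
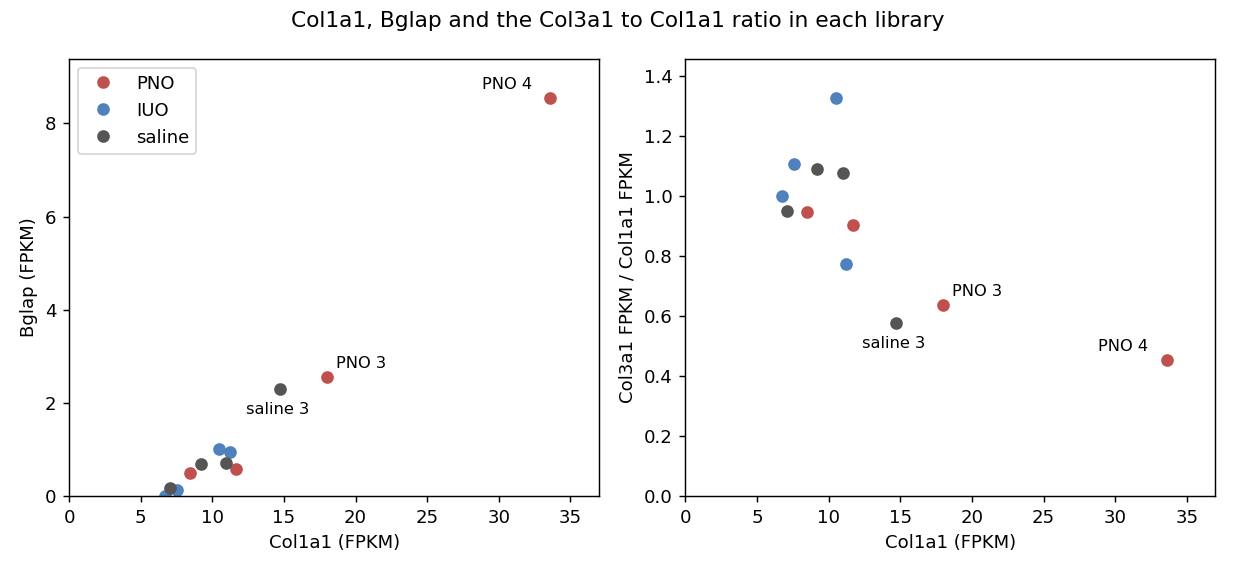
Left, Bglap against Col1a1, both in FPKM, and right, the ratio of Col3a1 to Col1a1 FPKM against Col1a1 FPKM, 1 point per library, coloured by group. PNO 4, PNO 3 and saline 3 have the most Col1a1 and the most Bglap (8.54, 2.55 and 2.31 FPKM) and the lowest ratios (0.455, 0.637 and 0.577). Bglap was picked for its likeness to Col1a1, so the match on the left follows in part from that choice. The ratios hold Col1a1 as their denominator and so fall as it rises in part by construction.

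Choroid plexus, another source of Igf2, was seen in few libraries. Ttr, its most abundant secreted product, was at 256 FPKM in IUO 2, at 22.7 FPKM in saline 1 and between 0 and 3.61 FPKM in the other 10. The 10 listed of 11 choroid plexus and ependyma markers, 4 of them tested, summed to 4.01 to 7.12 FPKM in PNO, 4.45 to 267 FPKM in IUO and 4.10 to 28.8 FPKM in saline. Igf2 in IUO 2 was 14.1 FPKM, within the range of the other libraries. Blood markers summed to 499 to 995 FPKM in PNO, 495 to 1610 FPKM in IUO and 196 to 1681 FPKM in saline.

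Genes around the collagens and proteoglycans in the same pathways were read from lists of related genes. None of their members passed in any of the 3 comparisons in edgeR. Of 14 other small leucine-rich proteoglycans, 12 were listed and 5 tested, and 0 had an unadjusted p under 0.05. Bgn, or biglycan, the closest relative of decorin, averaged 11.2 ± 2.21 FPKM in PNO, 8.96 ± 1.05 FPKM in IUO and 9.84 ± 1.27 FPKM in saline (SD, n = 4 each). It stood among the 5 genes most like Col1a1 over the 12 libraries (r = 0.887), picked after the values were seen. Prelp, which lies 113246 bases from Fmod on chromosome 13, averaged 11.9 ± 4.87, 10.6 ± 1.73 and 9.70 ± 1.47 FPKM in PNO, IUO and saline. Chromosomal neighbours differed widely in level. Epyc, 70826 bases from Lum, averaged 0.0264 FPKM over the 12 libraries, and Omd, 7477 bases from osteoglycin, averaged 1.94 FPKM.

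Procollagen is trimmed outside the cell by the N-proteinases of the ADAMTS family. In the list of 33 genes for folding, processing and cross-linking of collagen, 30 were listed and 26 tested, and 4 had an unadjusted p under 0.05 in edgeR with PNO above saline, beside 6.82% of all tested genes. The first 2 were such proteinases. Adamts2 averaged 2.25 ± 0.219 FPKM in PNO and 1.29 ± 0.280 FPKM in saline (SD, n = 4 each; log2 fold change 0.77, SE 0.20; edgeR adjusted p = 0.305). Adamts3 averaged 1.81 ± 0.808 FPKM in PNO and 0.710 ± 0.0670 FPKM in saline (SD, n = 4 each; log2 fold change 1.32, SE 0.33; edgeR adjusted p = 0.305). For both genes all 4 PNO libraries lay above all 4 saline libraries, beside 6.46% of all tested genes. All 4 PNO libraries also had raised bulb or striatal markers. Within IUO both genes were lowest in IUO 4, the library without raised markers, with Adamts2 at 0.883 FPKM and Adamts3 at 0.567 FPKM. Saline 2, with raised striatal markers, was at 0.903 FPKM for Adamts2, the lowest of saline, and at 0.686 FPKM for Adamts3. The part of region makeup was not tested. Adamts3 was highest in PNO 2, at 2.98 FPKM, the library with the most striatal markers. Adamts2 in IUO averaged 1.34 ± 0.311 FPKM, with all 4 libraries below all 4 PNO libraries (log2 fold change −0.74, SE 0.20; edgeR adjusted p = 0.714), beside 1.80% of all tested genes. In IUO against saline 1 of the 26 had an unadjusted p under 0.05 in edgeR, beside 4.02% of all tested genes. This was Adamts3, higher in IUO. In IUO against PNO 3 of the 26 were lower at that threshold, beside 3.06% of all tested genes.

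Of 8 other fibrillar collagens, all were listed and 7 tested. Col11a1, a minor chain that nucleates thin fibrils, averaged 1.74 ± 0.159 FPKM in PNO and 1.14 ± 0.269 FPKM in saline (SD, n = 4 each; log2 fold change 0.58, SE 0.20; edgeR adjusted p = 0.368). All PNO libraries were higher, beside 6.46% of all tested genes. Every PNO library had raised bulb or striatal markers, and the part of this was not tested. Col5a1, which encodes a chain of collagen V, a regulator of collagen I fibril diameter, had a log2 fold change of 0.27 (SE 0.13; edgeR adjusted p = 0.463). Its groups did not overlap but nearly met, with PNO 3 at 3.12 FPKM and saline 1 at 3.11 FPKM. Of 16 basement membrane, network and fibril-associated collagens, all were listed, 14 were tested and 2 had an unadjusted p under 0.05 in edgeR with PNO above saline, beside 6.82% of all tested genes. Col6a1 averaged 15.4 ± 2.11 FPKM in PNO, 15.4 ± 2.51 FPKM in IUO and 11.5 ± 2.63 FPKM in saline (SD, n = 4 each). It was higher at an unadjusted edgeR p of 0.029 in PNO and 0.0284 in IUO, with adjusted p of 0.420 and 0.998. Col16a1 averaged 6.21 ± 0.628 FPKM in IUO, 4.76 ± 0.474 FPKM in PNO and 4.94 ± 0.363 FPKM in saline (SD, n = 4 each). Its unadjusted edgeR p was 0.0107 in IUO against saline and 0.0026 in IUO against PNO (adjusted p = 0.998 and 0.714). In IUO against saline 2 of the 14 were higher at an unadjusted p under 0.05 and 0 lower, beside 2.31% and 1.71% of all tested genes. Against PNO 1 was higher and 1 lower, beside 3.67% and 3.06%. Among 9 collagen receptors, 6 were tested and 1 had an unadjusted p under 0.05 in edgeR, beside 11.0% of all tested genes in PNO against saline. It was Itga10, at 0.879 ± 0.397 FPKM in PNO and 0.221 ± 0.0791 FPKM in saline (SD, n = 4 each; edgeR adjusted p = 0.337). Itga10 was high in the 4 libraries with raised bulb markers, at 0.958, 1.02 and 1.23 FPKM in PNO 1, PNO 3 and PNO 4 and 1.20 FPKM in IUO 3, and PNO 2, at 0.308 FPKM, lay within saline, which reached 0.322 FPKM.

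In the insulin-like growth factor system, 16 genes were listed and 12 tested. Igfbp5, a secreted binding protein that holds the factor in the matrix, averaged 11.0 ± 1.89 FPKM in PNO, 9.78 ± 4.22 FPKM in IUO and 6.35 ± 0.981 FPKM in saline (SD, n = 4 each). All PNO libraries lay above saline (log2 fold change 0.78, SE 0.25; edgeR adjusted p = 0.355), beside 6.46% of all tested genes. Every PNO library had raised bulb or striatal markers. Igfbp5 was at 11.1, 8.48 and 14.8 FPKM in IUO 1, IUO 2 and IUO 3, which also had raised markers. IUO 4, which had not, was at 4.77 FPKM. Saline 2, with raised striatal markers, was at 6.66 FPKM, against 5.26 to 7.54 FPKM in the other saline libraries. The part of region makeup was not tested. Igf2r, the receptor that clears Igf2 by taking it to lysosomes, averaged 2.95 ± 0.343 FPKM in PNO and 2.32 ± 0.347 FPKM in saline (SD, n = 4 each; edgeR adjusted p = 0.486). Among the 5 other Slc6 carriers of GABA, betaine, taurine and creatine, 4 were tested. Slc6a11, the astrocyte GABA transporter GAT3, averaged 17.5 ± 2.25 FPKM in PNO and 9.71 ± 2.00 FPKM in saline (SD, n = 4 each; log2 fold change 0.82, SE 0.34; edgeR adjusted p = 0.421). Here too all PNO libraries were higher, beside 6.46% of all tested genes. The log2 fold change of Slc6a13 itself in that comparison was −0.06 (SE 0.24; edgeR adjusted p = 0.943).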

How the data were processed

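The authors deposited 1 table with whole-number counts and FPKM per gene and library, as named in the file headers. HISAT2 and StringTie are named in the submitters' processing notes; for versions, genome build, annotation and strand setting, the value is not given in the sources used here. Groups came from the sample labels.

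Counts of the 14170 genes that averaged 0.5 FPKM or more were scaled with TMM factors and fitted in 1 model of 3 groups over 12 libraries with edgeR's quasi-likelihood test. P-values were two-sided, adjusted by Benjamini-Hochberg over all tested genes, and called under 0.05. FPKM gave levels. Log2 CPM (prior count 2) gave correlations and marker means. Osteoglycin lies inside Cenpp, on the other strand, and no other listed gene overlaps the remaining 8 genes. P-values measure only the spread between these 12 animals. Replicate numbers shared by the groups were not taken as pairs. Tools were edgeR 4.0.16, DESeq2 1.42.0 and limma 3.58.1 under R 4.3.3, with Python 3.11.15, and the edgeR step was tested on simulated data.

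The 9 genes and the lists were chosen with earlier results of these data known, and the bone list after the values were seen. All 9 genes were named. From each other list up to 3 tested genes with the smallest unadjusted p per comparison could be named, and by likeness the 10 genes nearest the mean of the 9 and the 3 nearest Igf2 and Slc6a13. Alternatives were DESeq2, limma on log2(FPKM + 0.5) and with other pseudocounts, other filters and scalings, fits of 2 groups, a replicate block, and leaving out libraries.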

Additional observations from a re-analysis of the deposited data

Results flagged for a closer look

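In 4 of the 27 sets of 4 libraries (9 genes in 3 groups), 1 library stood far from the other 3 by Dixon's test for an outlying value. Chance gives such a gap in about 1 of 20 sets. Dcn was lowest in PNO 2 at 5.18 FPKM, and osteoglycin was lowest in the same library at 6.10 FPKM. Fmod was highest in PNO 3 at 7.90 FPKM within PNO, and in IUO 4 at 5.43 FPKM within IUO. PNO 2 also had the highest striatal markers of the 12 libraries (mean log2 CPM 6.50), and the part of this in its low Dcn and osteoglycin was not tested.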

How the results depend on the processing

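No member was called under any of the 24 alternatives, and the lowest adjusted p of a member was 0.314. Of 645 member values, 603 kept their direction and 42 reversed it. The number of genes called over the whole table, 0 in each comparison in edgeR, was 119 in PNO against saline, 11 in IUO against saline and 8 in IUO against PNO with DESeq2. In PNO against saline it was 1 with limma at each of the 3 pseudocounts (0.5, 0.1 and 1), 11 with only the 2 groups compared, 3 without the libraries with raised bulb markers, and 0 to 19 when 1 library was left out, with 19 without IUO 4 and 1 without saline 2. In IUO against saline it was 4 without the libraries with raised striatal markers, 1 without those with raised bulb markers, and 0 to 1 when 1 library was left out, with 1 without IUO 2 or saline 2. In IUO against PNO it was 3 without either set of region-marked libraries and 0 to 1 when 1 library was left out, with 1 without PNO 3 or IUO 2. With the replicate block it was 0 in all 3 comparisons, and no member was called. The labels tie no shared litter or day to a replicate number: 12 same-numbered pairs correlated at 0.0153 to 0.411, 4 of them over 0.1, and 8 of 12 libraries correlated best with their own number, a hint from the data only.

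Without the libraries with raised bulb markers, PNO against saline gave −0.34 for Col1a1, −0.38 for Col1a2, −0.24 for Col3a1 and −0.16 for Fmod. IUO against PNO gave 0.10 for Col1a2, 0.27 for Col3a1, 0.42 for Dcn, 0.27 for Lum, 0.21 for osteoglycin and 0.18 for Igf2. This leaves 1 PNO library, and the cause was not tested. A pair of values next to 0 changed sign. Igf2 in PNO against saline was 9.9e-05 with limma at a pseudocount of 0.5 and 0.00037 at 1. Col3a1 in IUO against saline was −0.0061 with DESeq2 and with median-of-ratios size factors, −0.012 with no filter and with only 2 groups, −0.0098 at a mean FPKM of at least 2, −0.00074 and −0.0015 with limma at pseudocounts of 0.5 and 0.1, and −0.030 with the replicate block.

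When 1 library was left out, PNO against saline ranged from 0.24 to 0.98 for Col1a1, 0.19 to 0.70 for Col1a2, −0.10 to 0.33 for Fmod, −0.24 to 0.15 for Igf2, −0.36 to 0.015 for Lum, −0.28 to 0.10 for Slc6a13 and −0.19 to 0.019 for osteoglycin. IUO against saline ranged from −0.26 to 0.13 for Col3a1. IUO against PNO ranged from −1.23 to −0.49 for Col1a1, −0.15 to 0.083 for Dcn and −0.24 to 0.15 for Lum. Lum had no value at a mean FPKM of at least 2. Lum rests on the fewest counts (279 to 596), and for all 9 genes the spread between 4 animals exceeds counting error.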
